A study of Arabidopsis thaliana with 36 samples.

Results

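The subject here is the genotype by organ interaction of opt3-2, the part of the mutant's transcript change that differs between leaves and roots of Arabidopsis thaliana. RNA sequencing libraries came from 4 groups of plants, namely leaves of the opt3-2 mutant, leaves of the wild type Columbia-0, roots of opt3-2 and roots of Columbia-0. Every group grew 11 days on plates and then 22 days in hydroponic culture under days of 16 h light, and each RNA sample pooled 3 to 4 plants. For all groups alike the labels name the medium as replete, while a treatment text that they also share mentions 20 µM CdCl2 over 72 h, and which of these holds was not settled. The mutant is 1 insertion line of OPT3, whole organs were taken, and nothing in the labels says whether the 3 biological replicates of a group were separate cultures. P-values therefore measure the spread between these samples, which may be technical. For each gene the leaf effect is the log2 fold change of opt3-2 over Columbia-0 in leaves, the root effect is the same in roots, and the organ difference is the leaf effect minus the root effect. Genes were kept when their mean level reached 5 CPM (TMM-scaled counts per 1e+06 reads) in 1 root group or more and in 1 leaf group or more. This held for 13389 of the 28775 genes in the table. Of them, 12645 had at least 5 CPM in all 4 groups, and 744 entered an organ through 1 genotype only, so that a difference there could help them pass. The gene closest above the limit was AT1G31460 at 5.003 CPM and the closest below it was APD1 at 4.998 CPM.

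OPT3 is an oligopeptide transporter of phloem companion cells that loads iron into the phloem and takes part in the signal by which leaves report their iron status to roots. Roots take up iron by acidifying the soil, reducing ferric iron with FRO2 and importing it with IRT1, helped by secreted coumarins, and nicotianamine, which is made from S-adenosylmethionine, carries metals between cells. Ferritins store iron in plastids, and vacuolar transporters of the VTL family load it into vacuoles.

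Promoters of the genes at both ends of the organ difference are shown first, because these genes define its range and a reader can inspect what lies before them. Each is the 200 bases before the gene start in RefSeq's annotation of TAIR10.1, written 5′ to 3′ on the gene's strand. Capitals mark matches, on either strand, to the letters CANNTG (the E-box read by bHLH factors), TTGAC (the core of the W-box read by WRKY factors) and GTAC (the core of the copper response element read by SPL7). The first 3 genes had the lowest organ differences and the last 3 are among the highest. AT5G59530, which has the third highest value, is left out because its window overlaps another gene, and AT1G52800 takes its place. The windows are chr5:22529807-22530006 on the plus strand for AT5G55620, chr3:19755489-19755688 on the plus strand for CYP71B5, chr1:4291018-4291217 on the minus strand for DDF1, chr2:15110292-15110491 on the plus strand for YLS9, chr3:20670915-20671114 on the plus strand for AT3G55700 and chr1:19663823-19664022 on the plus strand for AT1G52800.
AT5G55620: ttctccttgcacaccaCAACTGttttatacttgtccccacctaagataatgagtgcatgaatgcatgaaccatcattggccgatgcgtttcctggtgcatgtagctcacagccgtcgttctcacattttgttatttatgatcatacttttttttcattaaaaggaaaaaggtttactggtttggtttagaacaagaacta
CYP71B5: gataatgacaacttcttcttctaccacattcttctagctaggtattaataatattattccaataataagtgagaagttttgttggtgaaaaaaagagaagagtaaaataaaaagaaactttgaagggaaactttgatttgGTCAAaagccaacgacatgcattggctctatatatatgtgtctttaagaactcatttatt
DDF1: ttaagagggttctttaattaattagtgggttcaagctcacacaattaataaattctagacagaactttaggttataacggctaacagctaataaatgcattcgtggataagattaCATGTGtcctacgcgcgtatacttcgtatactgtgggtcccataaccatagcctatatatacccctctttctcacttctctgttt
YLS9: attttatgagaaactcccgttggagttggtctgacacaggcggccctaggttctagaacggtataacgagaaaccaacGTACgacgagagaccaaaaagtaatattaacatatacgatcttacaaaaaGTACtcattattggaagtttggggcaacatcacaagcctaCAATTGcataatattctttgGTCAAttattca
AT3G55700: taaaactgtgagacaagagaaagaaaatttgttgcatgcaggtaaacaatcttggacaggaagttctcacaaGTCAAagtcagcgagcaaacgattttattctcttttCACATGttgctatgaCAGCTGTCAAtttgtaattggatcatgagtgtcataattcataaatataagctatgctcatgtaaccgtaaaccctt
AT1G52800: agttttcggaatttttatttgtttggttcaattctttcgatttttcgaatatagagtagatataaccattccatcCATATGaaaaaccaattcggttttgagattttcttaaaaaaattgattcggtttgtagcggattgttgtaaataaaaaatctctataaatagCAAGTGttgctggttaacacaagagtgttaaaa
YLS9 holds all 3 kinds of match, with 1 E-box, 1 W-box core and 2 copper cores. AT3G55700 holds 2 E-boxes and 2 W-box cores, of which 1 base lies in overlapping matches, and AT1G52800 holds 2 E-boxes. AT5G55620 and DDF1 have 1 E-box each, and CYP71B5 has 1 W-box core. Over windows of the same length, an E-box was present in 45.5% of the genes called positive, 50% of those called negative and 47.4% of all 13374 genes expressed in both organs that had a window. The W-box core was present in 44.7%, 37.7% and 38.6% of these gene sets in the same order, and the copper core in 28.5%, 28.7% and 28.3%. These are matches of letters, not sites shown to be bound.

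Each replicate was the sum of 3 sequencing runs and held 23981444 to 37685493 counted reads. Replicates of a group correlated at r = 0.978 to 0.995 across genes, the genotypes within an organ at 0.962 to 0.982, and the organs at 0.551 to 0.598. Genes are not independent replicates, so these values only describe the libraries. OPT3 (AT4G16370, chromosome 4, 9247302 to 9250343 in TAIR10.1, protein-coding) checked the labels. It stood at 18.8, 21 and 18.4 CPM in opt3-2 leaves, against 128, 97.8 and 80.7 CPM in Columbia-0 leaves, and at 6.47, 5.49 and 4.94 CPM in opt3-2 roots, against 7.7, 6.64 and 8.2 CPM in Columbia-0 roots. Both organs had every opt3-2 library below every Columbia-0 library, with a leaf effect of -2.40 ± 0.16 (adjusted p = 2.66e-06) and a root effect of -0.41 ± 0.17 that was not called (adjusted p = 0.125), and the organ difference was -1.99 ± 0.23 (adjusted p = 0.000171). Tissue markers followed the organ labels. The 34 photosystem, antenna and Rubisco genes summed to 155108 CPM (range 151610.3 to 157743) in opt3-2 leaves and 180785 CPM (171498 to 185653) in Columbia-0 leaves, and to 743 CPM (547 to 1013) in opt3-2 roots and 638 CPM (499 to 723) in Columbia-0 roots, with no member at 0 reads in any group. The root hair markers summed to 1.3 CPM in opt3-2 leaves, 1.27 CPM in Columbia-0 leaves (RSL4 and EXPA7 at 0 reads there), 202 CPM in opt3-2 roots and 248 CPM in Columbia-0 roots. Some libraries stand apart within the roots: those numbered 3 of both genotypes had the highest levels of early stress genes. CZF1, for example, had 136, 212 and 620 CPM in opt3-2 roots, against 108, 262 and 564 CPM in Columbia-0 roots.

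Of the 5584 genes called in opt3-2 leaves, roots or both, 2371 (42.5%) were also called for the organ difference, so most changed genes were not shown to differ between organs. Of the genes expressed in both organs, 1415 had a positive organ difference (10.6% of 13389) and 1118 a negative one (8.35%) at an adjusted p under 0.05 by edgeR's quasi-likelihood test, which gives all adjusted p-values here. Over all 21692 genes tested the counts were 1834 (8.45%) and 1669 (7.69%). In leaves 2521 genes were higher in opt3-2 (18.8%) and 1790 lower (13.4%), and in roots 1214 were higher (9.07%) and 1050 lower (7.84%). The root calls, 2264 in all, numbered 1428 when Columbia-0 root replicate 1 was left out and 1336 when replicate 2 was. A change in both organs was called for 991 genes, which is 23% of the leaf calls and 43.8% of the root calls, and 744 of these moved the same way. Genes called for the organ difference and for both organ effects with opposite signs numbered 247 (1.84%). Across the 13389 genes the leaf and root effects correlated with Pearson's r = 0.122 and a Spearman rank correlation of 0.196, a description over genes measured in the same libraries. The median organ difference was 0.02, with medians of 0.03 for the leaf effect and 0.00 for the root effect. The majority of positive calls turned with scaling: they made up 55.9% of the calls with TMM factors, but 1104 stood against 1376 negative calls with RLE factors (44.5% positive), 1327 against 1636 in DESeq2 (44.8%) and 1030 against 1283 with no filter on low counts (44.5%). Leaving out any 1 leaf library also turned it, to between 42% and 45.5% positive, and without opt3-2 leaf replicate 3 or Columbia-0 leaf replicate 2 only 769 positive calls were made in each case. The counts without the other leaf libraries were 871 for Columbia-0 replicate 1, 1042 for Columbia-0 replicate 3, 868 for opt3-2 replicate 1 and 796 for opt3-2 replicate 2.

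**Figure D1:**
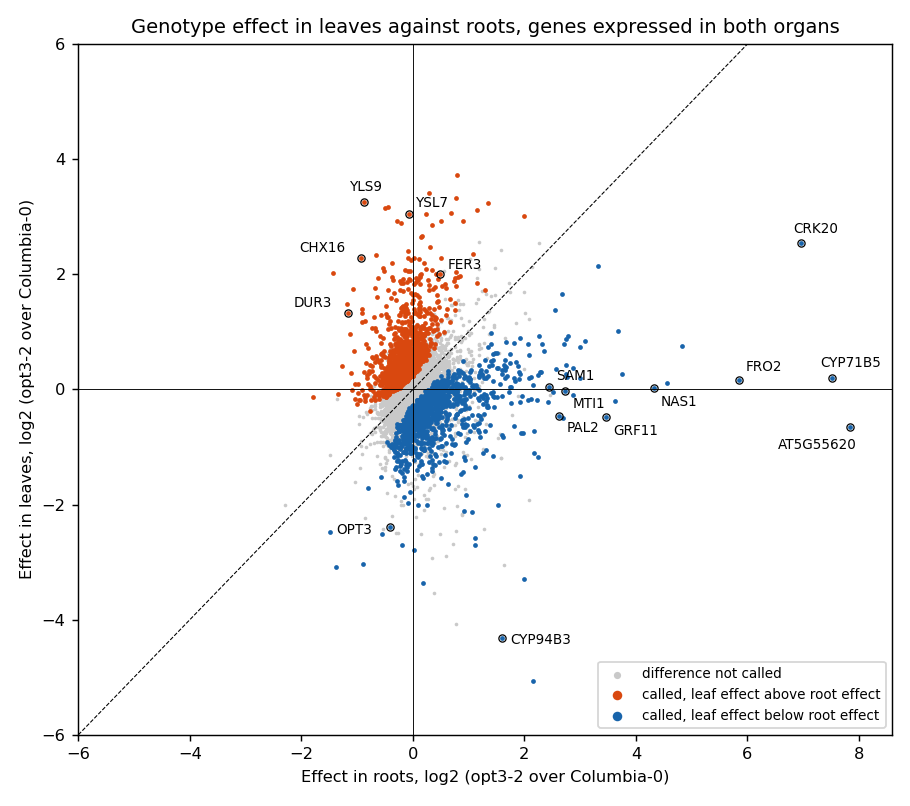
Each point is 1 of the 13389 genes expressed in both organs, placed by its root effect (horizontal axis, log2 of opt3-2 over Columbia-0) and its leaf effect (vertical axis, same scale), with genes on the dashed line having equal effects. Genes called for the organ difference are coloured by whether the leaf effect lies above (1415) or below (1118) the root effect, and the widest spread runs along the root axis, out to AT5G55620 at 7.83.

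Most genes with a positive organ difference were called higher in opt3-2 leaves. Among the 1415 genes, 903 (63.8%) were called higher in opt3-2 leaves and not called in roots, 229 (16.2%) were called lower in roots and not called in leaves, and 133 (9.4%) were called higher in leaves and lower in roots. The other cases were 46 genes called higher in both organs, 1 called lower in both and 103 called in neither. Among the 1118 negative ones, 544 (48.7%) were lower in opt3-2 leaves only, 329 (29.4%) were higher in roots only and 114 (10.2%) were lower in leaves and higher in roots. A further 55 were called higher in both organs, 17 lower in both and 59 in neither. At least a 2-fold difference between the organ effects was seen for 261 of the positive and 310 of the negative calls. Among the 12645 genes with 5 CPM or more in all 4 groups there were 1286 positive and 971 negative calls, of which 175 and 222 reached a 2-fold difference.

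**Figure D2:**
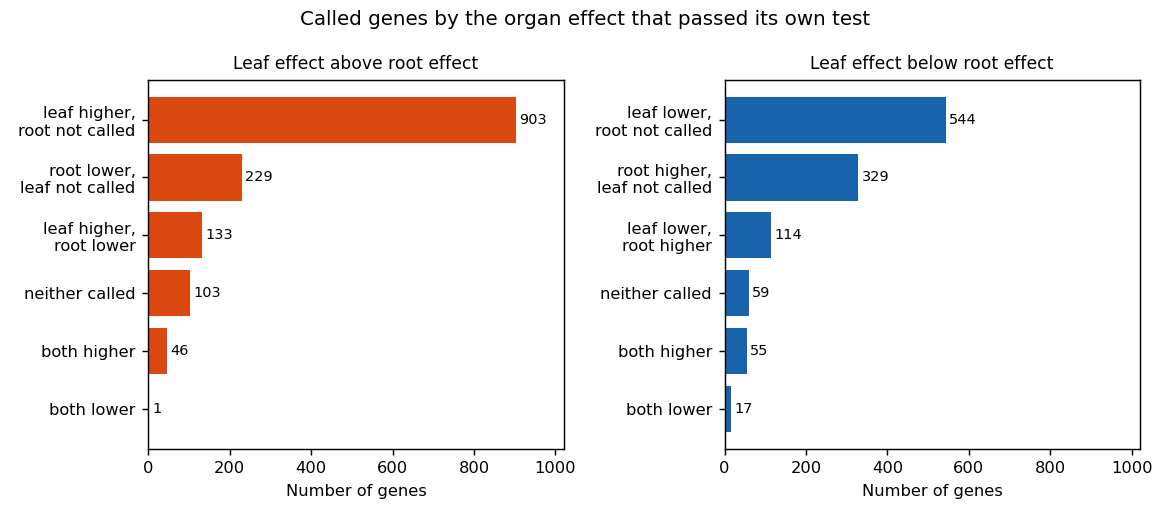
Bars count the genes called for the organ difference by which organ effect passed its own test, for leaf effects above (left) and below (right) the root effect. The longest bars are leaf changes without a call in roots, 903 genes on the left and 544 on the right.

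Genes of iron acquisition had the lowest median organ difference of the lists, with 9 of 10 members higher in opt3-2 roots and, in leaves, 2 higher and 2 lower. The shares of all genes were 9.07% higher in roots and, in leaves, 18.8% higher and 13.4% lower. Of the 24 members of the iron uptake list that were found, 10 were expressed in both organs. Of these, 9 were called negative (90%, beside 8.35% of all genes) and none positive, at a median organ difference of -3.71 (median leaf effect 0.16, median root effect 3.60). No member was positive at an unadjusted p under 0.05 by edgeR, nor at the threshold in DESeq2 or limma voom. FRO2 (AT1G01580), the ferric chelate reductase of the root surface, had 6.05, 5.62 and 4.75 CPM in opt3-2 leaves, against 5.49, 4.81 and 4.46 CPM in Columbia-0 leaves. In roots it had 2381, 3441 and 4066 CPM in opt3-2 roots, against 54.5, 72.1 and 45.3 CPM in Columbia-0 roots. The root groups are far apart while the leaf groups overlap, and the organ difference was -5.69 ± 0.32 (adjusted p = 1.79e-06). BGLU42, a beta-glucosidase that acts on coumarin glucosides, had 14.6, 13.4 and 12.9 CPM in opt3-2 leaves, against 12.6, 11.8 and 13.2 CPM in Columbia-0 leaves. Values in roots were 249, 450 and 392 CPM in opt3-2 roots, against 15.2, 15.9 and 15.4 CPM in Columbia-0 roots. Again only the root groups separate, with an organ difference of -4.43 ± 0.25 (adjusted p = 1.73e-06). CYP71B5, a cytochrome P450, showed 47.2, 44.2 and 45.6 CPM in opt3-2 leaves, against 41.2, 40.7 and 37.2 CPM in Columbia-0 leaves. In roots it was measured at 97.9, 169 and 165 CPM in opt3-2 roots, against 0.81, 0.776 and 0.772 CPM in Columbia-0 roots. Columbia-0 roots stand alone as the group in which it was hardly read, and the organ difference was -7.30 ± 0.27 (adjusted p = 1.34e-07). CYP71B5 reached 5 CPM in roots only through opt3-2, so its high level there helped it to be kept. F6'H1, which makes the coumarin scopoletin, had a root effect of 3.74 and a leaf effect of 0.27, and FRO3, a mitochondrial ferric reductase, rose in both organs, by 0.79 in leaves and 2.07 in roots.

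GRF11, a 14-3-3 protein, and ZIF1, a vacuolar transporter of nicotianamine, were the members called in opposite directions. GRF11 had 17.5, 19.4 and 19 CPM in opt3-2 leaves, against 23.5, 27.7 and 26.8 CPM in Columbia-0 leaves. Root libraries held 79, 89.9 and 99.9 CPM in opt3-2 roots, against 8.22, 8.67 and 7.36 CPM in Columbia-0 roots. No library overlaps between genotypes in either organ, with the leaves of the mutant low and its roots high, and the organ difference was -3.95 ± 0.14 (adjusted p = 1.34e-07). ZIF1 fell in leaves (-0.62) and rose in roots (0.68), an organ difference of -1.31 ± 0.15 (adjusted p = 0.000185). NRAMP1, a plasma membrane iron and manganese transporter, was the weakest of the 9 (-0.44 ± 0.12 (adjusted p = 0.0308)). AHA2, a proton pump, was the member that was not called, at 0.39 ± 0.18 (adjusted p = 0.173). NAS1, a nicotianamine synthase with close relatives that can share its reads, had 51.3, 51.3 and 50.6 CPM in opt3-2 leaves, against 59.7, 48.6 and 42 CPM in Columbia-0 leaves. It had 943, 1098 and 1382 CPM in opt3-2 roots, against 70.6, 43.1 and 57.7 CPM in Columbia-0 roots. The leaf groups overlap, the root groups are far apart, and the organ difference was -4.29 ± 0.27 (adjusted p = 4.49e-06).

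**Figure D3:**
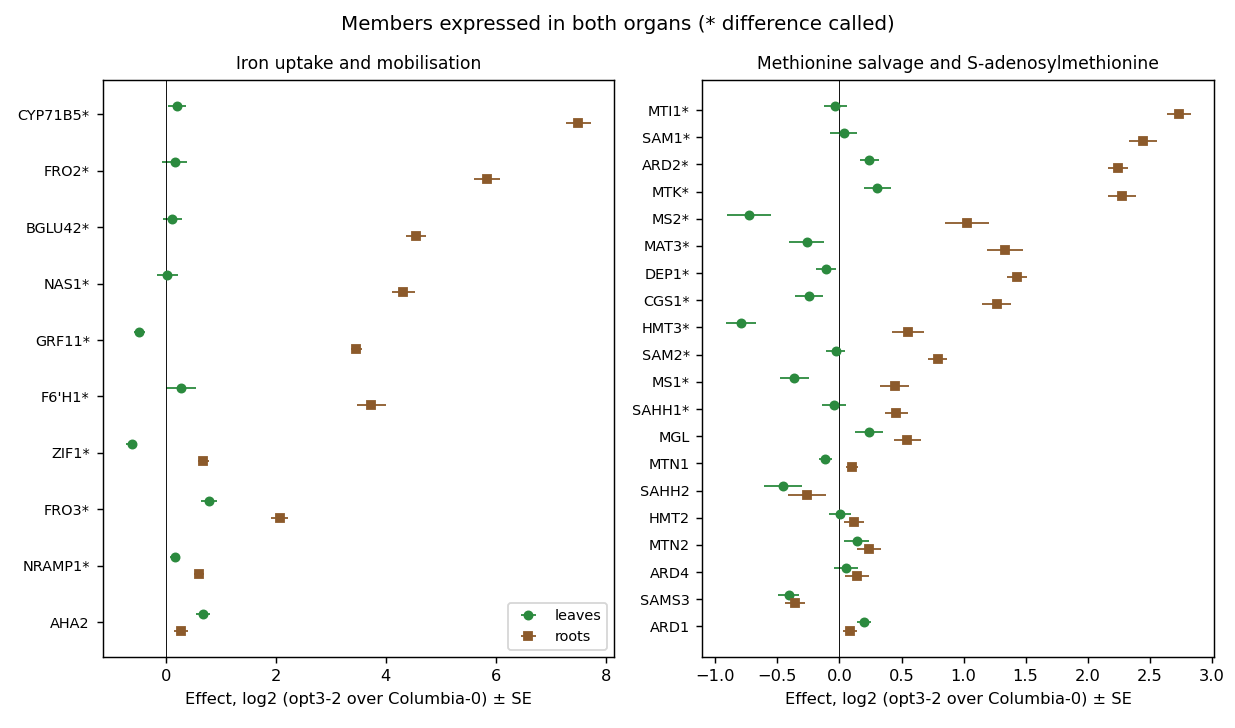
Leaf effects (circles) and root effects (squares) with their SE, in log2 of opt3-2 over Columbia-0, for every member of the iron uptake list (left) and the methionine list (right) that was expressed in both organs. Root effects reach 7.51 for CYP71B5 and 2.73 for MTI1, while the leaf effects of both genes lie close to 0, and an asterisk marks a called organ difference.

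Of 20 genes of the methionine cycle, 13 rose and 1 fell in opt3-2 roots, while 2 rose and 5 fell in leaves. The shares of all genes were 9.07% and 7.84% in roots, and 18.8% and 13.4% in leaves. In leaves the whole list summed to 4880.5 CPM in opt3-2 and 5753.4 CPM in Columbia-0. Methionine feeds S-adenosylmethionine, the substrate of nicotianamine and ethylene synthesis, and the salvage pathway recycles the methylthio group that these reactions release. For the organ difference 12 were called negative (60%, beside 8.35% of all genes) and 19 had a negative value, at a median organ difference of -0.81 (median leaf effect -0.04, median root effect 0.55). Of the 12, 8 were called in roots alone, 3 in both organs with opposite signs and 1 in both with the same sign. MTI1 (AT2G05830), the methylthioribose-1-phosphate isomerase of the salvage pathway, had 51.7, 51.4 and 49.3 CPM in opt3-2 leaves, against 54.5, 55.4 and 46 CPM in Columbia-0 leaves. The roots held 191, 233 and 227 CPM in opt3-2 roots, against 30.6, 33.9 and 33.3 CPM in Columbia-0 roots. The root groups do not overlap and the leaf groups do, with an organ difference of -2.77 ± 0.13 (adjusted p = 4.78e-07). SAM1, an S-adenosylmethionine synthetase, had 435, 434 and 441 CPM in opt3-2 leaves, against 431, 403 and 445 CPM in Columbia-0 leaves. Its root levels were 3694, 4578 and 5052 CPM in opt3-2 roots, against 840, 819 and 788 CPM in Columbia-0 roots. The pattern is that of MTI1, with an organ difference of -2.41 ± 0.15 (adjusted p = 4.49e-06). ARD2, an acireductone dioxygenase of the salvage pathway, had 281, 353 and 326 CPM in opt3-2 roots, against 67.9, 67.2 and 68 CPM in Columbia-0 roots, and an organ difference of -2.0 ± 0.11 (adjusted p = 1.73e-06). DEP1, the enzyme that acts before ARD2, had an organ difference of -1.54 ± 0.12 (adjusted p = 1.09e-05), and MTK, the methylthioribose kinase, one of -1.97 ± 0.15 (adjusted p = 1.45e-05). Outside salvage, CGS1, the first enzyme committed to methionine synthesis, rose in roots (1.26) and was not called in leaves (-0.25). The methionine synthases MS1 and MS2 and the homocysteine methyltransferase HMT3 were the 3 members that fell in leaves and rose in roots: MS2 had effects of -0.73 in leaves and 1.03 in roots, HMT3 -0.79 and 0.55 and MS1 -0.36 and 0.45. SAM2 (-0.82), MAT3 (-1.60) and SAHH1 (-0.51) were the other members called. MTN1 and MTN2, the nucleosidases that open the salvage pathway, had organ differences of -0.22 and -0.10 and were not called. The count of 12 stayed between 11 and 13 over all refits.

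**Figure D4:**
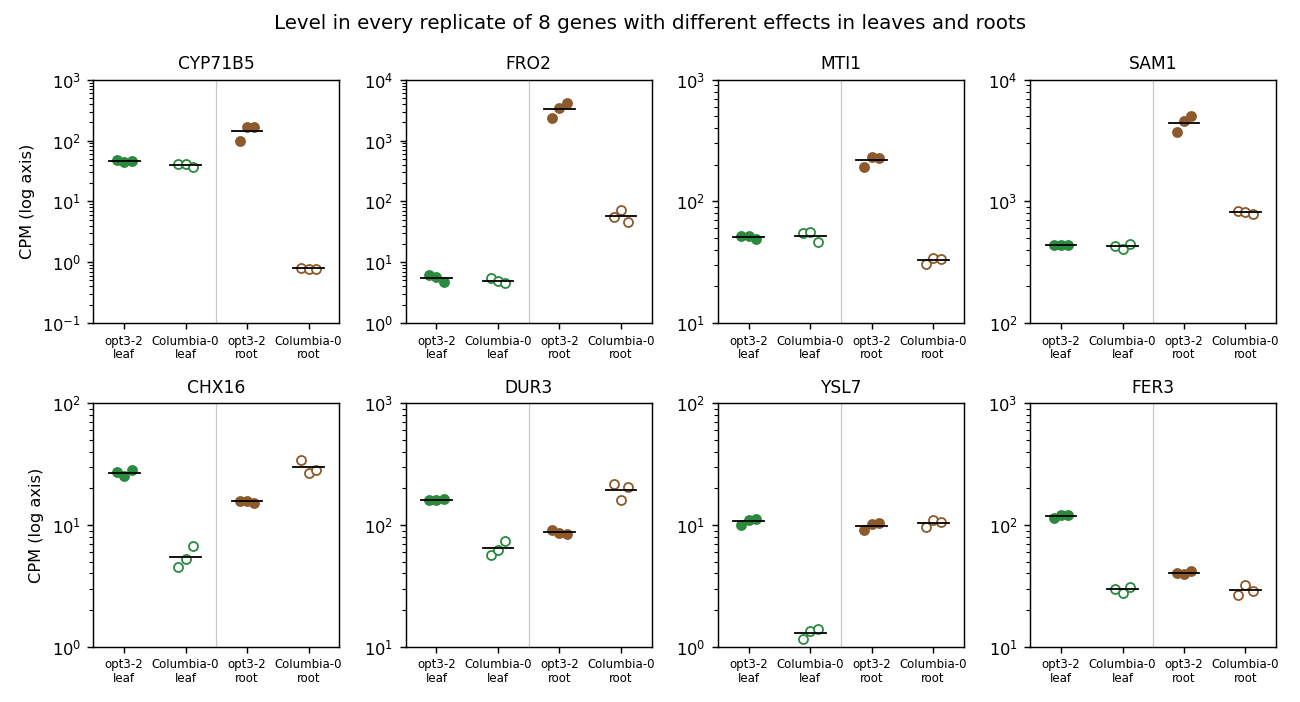
Levels in CPM on a log axis in every replicate of opt3-2 leaves, Columbia-0 leaves, opt3-2 roots and Columbia-0 roots, for 8 genes (filled points opt3-2, open points Columbia-0, black line the mean of 3). In the upper row the root groups lie far apart and the leaf groups close together, whereas CHX16 and DUR3 separate in both organs in opposite directions and YSL7 separates in leaves.

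Of the bHLH and related regulators of iron deficiency that were expressed in both organs, 2 of 8 were called negative (25%, beside 8.35% of all genes) and the median organ difference was -0.32 (median leaf effect -0.02, median root effect 0.26). ILR3, a bHLH factor of the iron response, had 96.7, 91.9 and 90 CPM in opt3-2 leaves, against 105, 109 and 103 CPM in Columbia-0 leaves, and 158, 156 and 171 CPM in opt3-2 roots, against 109, 110 and 105 CPM in Columbia-0 roots. The genotypes do not overlap in either organ and the order is opposite, with an organ difference of -0.77 ± 0.08 (adjusted p = 0.000116). PYE, a bHLH factor induced by iron shortage, had 19.1, 20.8 and 26.7 CPM in opt3-2 roots, against 7.2, 9.74 and 12.4 CPM in Columbia-0 roots, overlapping groups in leaves, and an organ difference of -1.36 ± 0.29 (adjusted p = 0.00884). The other 6 members, BHLH20, BTS, BHLH34, BHLH121, BHLH104 and BHLH115, had negative values from -0.58 to -0.04 and were not called. Of the 13 members matched to a gene, BHLH38, BHLH39, BHLH100 and BHLH101 had larger root changes but too little signal in leaves to be kept. BTSL1, BTSL2, BHLH18, BHLH19, BHLH25 and IMA1 to IMA6 could not be matched to a gene by symbol. Whether they have counts was not checked.

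Among the iron storage and movement genes, the ferritins FER3 and FER4 had larger effects in leaves, and the transporters VTL1, VTL2, FPN3 and NRAMP3 larger ones in roots, while NRAMP4 of the vacuole (-0.12 ± 0.13 (adjusted p = 0.574)) and PIC1 of the plastid (0.02 ± 0.11 (adjusted p = 0.948)) were not called. Among 12 members, 3 were called positive (25%, beside 10.6% of all genes) and 6 negative (50%, beside 8.35%), at a median organ difference of -0.55 (leaf 0.36, root 0.41). The 6 negative calls include OPT3, the mutated gene itself (-1.99). They also include YSL2 (-0.99, adjusted p = 0.0498), which the copper deficiency list counts too. FER3, a plastid ferritin, had 114, 120 and 121 CPM in opt3-2 leaves, against 29.9, 27.6 and 31.2 CPM in Columbia-0 leaves. Values in roots were 40, 39.9 and 42.1 CPM in opt3-2 roots, against 26.4, 32.1 and 28.4 CPM in Columbia-0 roots. It rose in both organs with no overlap, by 2.0 ± 0.08 in leaves and 0.49 ± 0.07 in roots, an organ difference of 1.51 ± 0.11 (adjusted p = 7.5e-06). FER4, another ferritin, had an organ difference of 0.80 ± 0.15 (adjusted p = 0.00393), with a leaf effect of 1.14. The ferritin FER1 had no reads in the leaves of either genotype, for a reason that was not tested, and so was not kept. VTL1, of the family of vacuolar iron transporters, had 12.7, 13.2 and 12.8 CPM in opt3-2 leaves, against 7.25, 7.66 and 6.75 CPM in Columbia-0 leaves. Its root levels were 247, 227 and 215 CPM in opt3-2 roots, against 24.1, 24.2 and 32.4 CPM in Columbia-0 roots. It rose in both organs without overlap but far more in roots, with an organ difference of -2.25 ± 0.16 (adjusted p = 7.5e-06), and its relative VTL2 behaved alike (-2.26 ± 0.16 (adjusted p = 7.76e-06)). FPN3, an iron exporter of plastids and mitochondria, had 44.2, 51.5 and 58 CPM in opt3-2 roots, against 17, 16.2 and 17 CPM in Columbia-0 roots, overlapping leaf groups, and an organ difference of -1.72 ± 0.15 (adjusted p = 2.46e-05). NRAMP3, which exports iron from the vacuole, rose by 0.34 in leaves and 1.60 in roots. YSL3, a transporter of metal-nicotianamine complexes, rose in leaves (0.46) and fell in roots (-0.83), an organ difference of 1.3 ± 0.17 (adjusted p = 0.00041).

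Of the copper genes called for the organ difference, COPT2, YSL2 and LAC2 fell in opt3-2 leaves, CSD1 and CSD2 rose in both organs, and PETE2 was called in neither organ alone. Of 7 copper deficiency genes, 2 were called negative (28.6%, beside 8.35% of all genes). In leaves 5 were lower (beside 13.4% of all genes), and in roots 3 (beside 7.84%). Medians were -1.20 for the leaf effect, -0.50 for the root effect and -0.23 for the organ difference. The organ difference was negative for 4 members and positive for 3. COPT2, a copper importer, had 1.97, 1.98 and 2.05 CPM in opt3-2 leaves, against 10.8, 8.1 and 5.55 CPM in Columbia-0 leaves. In roots it had 44.4, 56 and 56.3 CPM in opt3-2 roots, against 44.4, 43.6 and 42.7 CPM in Columbia-0 roots. Leaf groups are far apart, root groups touch, and the organ difference was -2.28 ± 0.27 (adjusted p = 0.000202). YSL2, a metal-nicotianamine transporter, fell in both organs (-2.48 in leaves, -1.49 in roots), and its organ difference of -0.99 ± 0.31 (adjusted p = 0.0498) lost its call when any library other than Columbia-0 leaf replicate 3 or opt3-2 root replicate 3 was left out (adjusted p = 0.0574 to 0.107). FSD1 (-2.01 in leaves, -2.29 in roots) and CCH (-1.13 and -1.49) fell in both organs and were not called for the organ difference. FRO5 and ZIP2 fell in roots (-4.65 and -2.84) but had too little signal in leaves to be kept. Of 10 genes for copper proteins, 3 were called negative (30%, beside 8.35% of all genes) and 1 positive (10%, beside 10.6%). CSD1, the cytosolic copper and zinc superoxide dismutase, had 339, 353 and 378 CPM in opt3-2 leaves, against 139, 130 and 141 CPM in Columbia-0 leaves. Values in roots were 336, 398 and 383 CPM in opt3-2 roots, against 62.3, 66.1 and 61.3 CPM in Columbia-0 roots. CSD1 rose in both organs, more in roots (-1.17 ± 0.11 (adjusted p = 3.92e-05)), whereas CSD2, its plastid relative, rose by 1.72 in leaves and 1.29 in roots (0.43 ± 0.08 (adjusted p = 0.00308)). LAC2, a laccase, fell in leaves and not detectably in roots (organ difference -1.21 ± 0.18 (adjusted p = 0.000989)). PETE2, the plastocyanin of photosynthesis, had an organ difference of -0.74 ± 0.22 (adjusted p = 0.0428), which was not called without Columbia-0 leaf replicates 1 or 2, Columbia-0 root replicates 1 or 2, opt3-2 root replicate 1 or any opt3-2 leaf library (adjusted p = 0.0667 to 0.102).

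Among 7 zinc genes, 2 were called positive (28.6%, beside 10.6% of all genes) and 1 negative (14.3%, beside 8.35%). ZIP5, a transporter of the ZIP family, had 16.7, 15 and 17.1 CPM in opt3-2 leaves, against 5.94, 6.99 and 8.7 CPM in Columbia-0 leaves, while its root groups overlap, with an organ difference of 1.36 ± 0.20 (adjusted p = 0.000896). HMA2, a zinc-exporting ATPase, had 14.7, 17 and 14.8 CPM in opt3-2 roots, against 35.4, 28.5 and 29.6 CPM in Columbia-0 roots, and an organ difference of 0.76 ± 0.14 (adjusted p = 0.00396). ZIP1 had an organ difference of -0.59 ± 0.16 (adjusted p = 0.0256); without Columbia-0 root replicate 1 or opt3-2 root replicate 2 it was not called (adjusted p = 0.0593 and 0.0597), and without opt3-2 leaf replicate 2 or Columbia-0 leaf replicate 1 the negative calls numbered 2.

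Several genes of nitrate, sulfate and phosphate nutrition rose in opt3-2 leaves and fell in roots. Of 12 nitrate genes, 5 were called positive (41.7%, beside 10.6% of all genes) and 1 negative (8.33%, beside 8.35%); of 12 sulfate genes, 3 (25%) and 2 (16.7%); and of 12 phosphate genes, 3 (25%) and 0. No phosphate gene was negative at an unadjusted p under 0.05 by edgeR, nor at the threshold in DESeq2 or limma voom. NRT3.1, the partner protein of the high-affinity nitrate transporters, had 54.2, 53.5 and 63.4 CPM in opt3-2 leaves, against 14.8, 13.4 and 17 CPM in Columbia-0 leaves. Root libraries held 404, 484 and 469 CPM in opt3-2 roots, against 570, 422 and 541 CPM in Columbia-0 roots. Only the leaf groups separate, and the organ difference was 2.1 ± 0.18 (adjusted p = 2.89e-05). NIA1, a nitrate reductase, had 367, 357 and 444 CPM in opt3-2 leaves, against 207, 167 and 186 CPM in Columbia-0 leaves. Its roots had 788, 768 and 975 CPM in opt3-2 roots, against 1444, 1289 and 1331 CPM in Columbia-0 roots. The genotypes do not overlap in either organ and change places between them, with an organ difference of 1.75 ± 0.17 (adjusted p = 6.19e-05). NRT1.1, a nitrate transporter and sensor, did the same, with a leaf effect of 0.41, a root effect of -1.27 and an organ difference of 1.68 ± 0.18 (adjusted p = 0.000116). NIR1, the nitrite reductase, fell in roots (-0.76) and was not called in leaves (-0.19), and GLN1;1, a cytosolic glutamine synthetase, rose in both organs, more in leaves (0.90). ASN1, the asparagine synthetase induced by darkness and sugar shortage, went the other way: it had 101, 91.8 and 92.3 CPM in opt3-2 leaves, against 158, 253 and 228 CPM in Columbia-0 leaves. It had 91.3, 82 and 71.6 CPM in opt3-2 roots, against 38.2, 26.4 and 26 CPM in Columbia-0 roots. Mutant leaves are low and mutant roots high with no overlap, an organ difference of -2.60 ± 0.26 (adjusted p = 6.91e-05).

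SULTR1;2, the main sulfate importer of roots, had 33.7, 31.1 and 29.5 CPM in opt3-2 leaves, against 13.3, 16 and 12.4 CPM in Columbia-0 leaves. Roots had 268, 302 and 344 CPM in opt3-2 roots, against 605, 522 and 533 CPM in Columbia-0 roots. The mutant is high in leaves and low in roots without overlap (2.04 ± 0.16 (adjusted p = 1.57e-05)). SULTR2;2, a sulfate transporter of the vasculature, fell in roots only (organ difference 1.01 ± 0.16 (adjusted p = 0.00189)), and SULTR4;1, which releases sulfate from vacuoles, had an organ difference of 0.45 ± 0.12 (adjusted p = 0.0233). APS3, an ATP sulfurylase that activates sulfate, went against them: it had 31.2, 30.2 and 28 CPM in opt3-2 leaves, against 71.8, 67.4 and 61.7 CPM in Columbia-0 leaves. Its root levels were 42.3, 69.6 and 85.1 CPM in opt3-2 roots, against 10.9, 12.6 and 18.3 CPM in Columbia-0 roots. The organ difference was -3.41 ± 0.33 (adjusted p = 5.67e-05). SULTR3;5 fell in leaves only (organ difference -0.70 ± 0.16 (adjusted p = 0.0111)). With the replicate number as a block in the root libraries, 5 sulfate genes were called positive in place of 3. Among the phosphate genes, PHF1, which lets phosphate transporters leave the endoplasmic reticulum, had 19.6, 20.3 and 20 CPM in opt3-2 leaves, against 11.8, 13.4 and 15 CPM in Columbia-0 leaves, and 38.9, 39.8 and 45.4 CPM in opt3-2 roots, against 55.2, 51.6 and 53.7 CPM in Columbia-0 roots. The groups separate in both organs in opposite order (0.94 ± 0.12 (adjusted p = 0.0004)). PAP17, a purple acid phosphatase, followed that form (1.06 ± 0.16 (adjusted p = 0.00132)), and SPX1, a phosphate sensor, rose in leaves alone (organ difference 0.72 ± 0.16 (adjusted p = 0.0101)).

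PAL1, PAL2 and C4H, at the entry of the phenylpropanoid pathway, rose in opt3-2 roots. Of 6 flavonoid list members expressed in both organs, 4 were called negative (66.7%, beside 8.35% of all genes), at a median organ difference of -1.08 (leaf 0.01, root 1.29). The 4 are PAL1, PAL2 and C4H, which make the cinnamic and coumaric acids that coumarins, lignin and flavonoids share, and HY5, a light-signalling bZIP factor, so none is an enzyme of flavonoid synthesis alone. PAL2 had 146, 143 and 136 CPM in opt3-2 leaves, against 221, 180 and 185 CPM in Columbia-0 leaves. The roots held 950, 1426 and 1524 CPM in opt3-2 roots, against 205, 209 and 219 CPM in Columbia-0 roots. The genotypes separate in both organs, upward in roots and slightly downward in leaves, with an organ difference of -3.09 ± 0.21 (adjusted p = 6.47e-06). PAL1 had 1834, 2506 and 2898 CPM in opt3-2 roots, against 498, 476 and 491 CPM in Columbia-0 roots, a leaf effect of 0.30 and an organ difference of -2.0 ± 0.20 (adjusted p = 7.42e-05). C4H rose in both organs, by 0.36 in leaves and 1.52 in roots (-1.16 ± 0.17 (adjusted p = 0.00099)). HY5 had an organ difference of -0.99 ± 0.20 (adjusted p = 0.00628). The flavonoid enzymes CHS (0.28) and FLS1 (-0.35) were not called.

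Of 16 genes of aliphatic glucosinolate synthesis, 15 were called lower and 1 higher in opt3-2 leaves, and 3 lower in roots. Of all genes expressed in both organs, 13.4% were lower and 18.8% higher in leaves, and 7.84% lower in roots. The organ difference was called negative for 7 (43.8%, beside 8.35% of all genes) and positive for 1 (6.25%, beside 10.6%). BCAT4, which starts side chain elongation, had 279, 276 and 245 CPM in opt3-2 leaves, against 414, 361 and 348 CPM in Columbia-0 leaves. Values in roots were 224, 237 and 223 CPM in opt3-2 roots, against 208, 211 and 168 CPM in Columbia-0 roots. Leaves separate downward, and roots lie slightly apart in the other direction without a call, with an organ difference of -0.71 ± 0.14 (adjusted p = 0.00568). SUR1, the C-S lyase (-0.60 ± 0.13 (adjusted p = 0.0104)), and IMD1, an isopropylmalate dehydrogenase (-0.60 ± 0.14 (adjusted p = 0.012)), fell in leaves and overlapped in roots. CYP79F2 (-0.61), IPMI1 (-0.65), BAT5 (-0.60) and SOT17 (-0.45) were the other negative calls, and of all 7 CYP79F2 and SOT17 fell in both organs. MAM3, a methylthioalkylmalate synthase, was the positive one: it had 33.1, 32.2 and 29.8 CPM in opt3-2 leaves, against 18.4, 19.6 and 17.7 CPM in Columbia-0 leaves, overlapping groups in roots, and an organ difference of 0.99 ± 0.14 (adjusted p = 0.00071). The negative calls numbered 11 in DESeq2 and 4 without Columbia-0 root replicate 1 or 3. Among 15 indole genes, 6 were lower and 1 higher in leaves, and the whole list summed to 3224.3 CPM in opt3-2 leaves and 3027.3 CPM in Columbia-0 leaves. The organ difference was called negative for 4 (26.7%, beside 8.35% of all genes), all of which fell in leaves alone. CYP79B3, which makes indole-3-acetaldoxime, had 71.6, 80.2 and 74.3 CPM in opt3-2 leaves, against 222, 176 and 180 CPM in Columbia-0 leaves, overlapping groups in roots, and an organ difference of -1.25 ± 0.22 (adjusted p = 0.00335). UGT74B1, a glucosyltransferase of the pathway, followed (-0.88 ± 0.13 (adjusted p = 0.000889)). MYB34, a regulator of indole glucosinolates, had an organ difference of -1.31 ± 0.34 (adjusted p = 0.0242) and was not called without Columbia-0 root replicate 2 or opt3-2 leaf replicate 1 (adjusted p = 0.0582 and 0.0515), each of which left 2 negative calls in the list. SOT16, a sulfotransferase, had -0.84 ± 0.23 (adjusted p = 0.0265) and was not called without Columbia-0 leaf replicate 1, Columbia-0 root replicates 1 or 2, or opt3-2 leaf replicates 1 or 2 (adjusted p = 0.0556 to 0.064).

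Of 17 jasmonate genes, 5 fell in opt3-2 leaves, beside 13.4% of all genes, and none was called in roots. How many differed between organs depended on how the root libraries were compared. The organ difference was negative for 16 and called for 5 (29.4%, beside 8.35% of all genes), at a median of -1.0 (leaf -1.25, root 0.09). With the replicate number as a block in the root libraries 14 were called, and in limma voom 2; leaving out Columbia-0 root replicate 3 gave 9 calls, and leaving out either of the other Columbia-0 root libraries or any opt3-2 leaf library gave 3. OPR3, the reductase that makes the jasmonate precursor, had 42.4, 47.8 and 51.1 CPM in opt3-2 leaves, against 148, 93.9 and 112 CPM in Columbia-0 leaves. In roots it had 36.7, 22.9 and 36.2 CPM in opt3-2 roots, against 20, 19 and 33.9 CPM in Columbia-0 roots. The leaf groups are apart, the root groups overlap, and the organ difference was -1.72 ± 0.35 (adjusted p = 0.00634). CYP94C1, which oxidises the active jasmonate, had 2.55, 3.2 and 3.59 CPM in opt3-2 leaves, against 10.9, 7.04 and 9 CPM in Columbia-0 leaves, overlapping root groups, and an organ difference of -1.37 ± 0.27 (adjusted p = 0.00599). CYP94B3, another enzyme of that oxidation, had 0.215, 0.22 and 1.51 CPM in opt3-2 leaves, against 27.9, 5.74 and 5.78 CPM in Columbia-0 leaves. Its roots had 3.52, 2.83 and 18.6 CPM in opt3-2 roots, against 0.955, 2.78 and 4.6 CPM in Columbia-0 roots. The high values of the roots belong to the libraries numbered 3, and the organ difference of -5.91 ± 1.41 (adjusted p = 0.0156) was not called by limma voom (adjusted p = 0.0622, the highest of its alternatives). JAZ10, a repressor of the response, had an organ difference of -3.54 ± 0.94 (adjusted p = 0.0258), which was not called by limma voom, nor without Columbia-0 leaf replicate 3, Columbia-0 root replicates 1 or 2, opt3-2 root replicate 1 or any opt3-2 leaf library (adjusted p = 0.0515 to 0.0652). JAZ9 was called at -1.0 ± 0.30 (adjusted p = 0.0446).

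Early stress genes such as CBF, WRKY, ZAT and calmodulin-like genes had the second lowest median organ difference of the lists, -1.55 (leaf -1.06, root 0.68), yet 1 of 18 was called (5.56%, beside 8.35% of all genes). All 18 values were negative. With the block in the root libraries 12 were called, and none in DESeq2, in limma voom or without opt3-2 root replicate 3; the count at an unadjusted p under 0.05 by edgeR was 4. It was 4 without Columbia-0 root replicate 3, 2 without opt3-2 root replicate 1 or 2, and 0 without any other library. The called gene was DDF1, of the CBF family. It had 0.184, 0.0314 and 0.472 CPM in opt3-2 leaves, against 16.3, 3.7 and 3.68 CPM in Columbia-0 leaves. Root libraries held 0.433, 0.546 and 17 CPM in opt3-2 roots, against 0.0289, 0.616 and 3.51 CPM in Columbia-0 roots. The leaf groups do not overlap, and the root values are dominated by replicate 3 of each genotype. Its organ difference was -7.21 ± 2.2 (adjusted p = 0.0457); it was -3.61 without opt3-2 root replicate 3, and the call was kept only without Columbia-0 root replicate 3, opt3-2 root replicate 1 or opt3-2 root replicate 2 (otherwise adjusted p = 0.0533 to 0.211). TCH3, a calmodulin-like gene induced by touch, had 288, 306 and 393 CPM in opt3-2 leaves, against 571, 715 and 449 CPM in Columbia-0 leaves. Its roots had 87.4, 86.9 and 292 CPM in opt3-2 roots, against 43.8, 50.9 and 108 CPM in Columbia-0 roots. The organ difference of -2.01 ± 0.65 (adjusted p = 0.0581) was called with the block in the root libraries (adjusted p = 0.000492) and without Columbia-0 root replicate 3, opt3-2 root replicate 1 or opt3-2 root replicate 2 (0.0246 to 0.0391), within a range of 0.000492 to 0.125 over all refits. CZF1, a zinc finger gene, had 58.6, 59.8 and 79.6 CPM in opt3-2 leaves, against 163, 128 and 99.7 CPM in Columbia-0 leaves, and its organ difference of -1.03 ± 0.82 (adjusted p = 0.436) was called under that block alone (adjusted p = 0.0162, range 0.0162 to 0.92). Of 18 ethylene genes none was called by edgeR, 2 were negative at an unadjusted p under 0.05, 1 was called in DESeq2, none in limma voom, and 7 with the block in the root libraries. EBF1, among the most abundant members, was not called (-0.01 ± 0.45 (adjusted p = 1)).

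Among 15 abscisic acid and drought genes, 4 were called negative (26.7%, beside 8.35% of all genes) and 1 positive (6.67%, beside 10.6%). COR47, a dehydrin, had 187, 193 and 192 CPM in opt3-2 leaves, against 316, 287 and 308 CPM in Columbia-0 leaves. It had 472, 539 and 653 CPM in opt3-2 roots, against 340, 460 and 496 CPM in Columbia-0 roots. Only the leaf groups separate (-1.03 ± 0.20 (adjusted p = 0.00466)). ERD10, another dehydrin, followed that form (-1.57 ± 0.39 (adjusted p = 0.0183)), and KIN2 was called at -1.71 ± 0.53 (adjusted p = 0.0462), with a near-identical neighbour that can share its reads. RD29A, a stress-induced gene, had 17, 6.84 and 3.65 CPM in opt3-2 roots, against 2.46, 2.22 and 3.38 CPM in Columbia-0 roots. Its organ difference of -2.44 ± 0.58 (adjusted p = 0.0161) rests partly on opt3-2 root replicate 1, without which it was -1.60. ABF4, a bZIP factor of the hormone response, had 94.3, 87.5 and 87 CPM in opt3-2 leaves, against 61, 61.8 and 62 CPM in Columbia-0 leaves, close levels in roots, and an organ difference of 0.42 ± 0.07 (adjusted p = 0.00314). Of 11 salicylate genes, 1 was called positive and 1 negative (9.09% each, near the shares of all genes). ICS1, which makes most stress-induced salicylate, had 75.5, 75.8 and 103 CPM in opt3-2 leaves, against 42.8, 44.2 and 40.1 CPM in Columbia-0 leaves, with an organ difference of 0.77 ± 0.19 (adjusted p = 0.0186) that was not called without Columbia-0 leaf replicates 1 or 3 or opt3-2 leaf replicate 3 (adjusted p = 0.0505 to 0.0588); without opt3-2 root replicate 3 the list had 3 positive calls. WRKY70, a factor between the salicylate and jasmonate responses, had 8.91, 10.3 and 30.4 CPM in opt3-2 roots, against 1.71, 3.02 and 7.3 CPM in Columbia-0 roots. Its organ difference of -2.23 ± 0.68 (adjusted p = 0.0452) became -1.46 without opt3-2 root replicate 3, and its call was kept only without Columbia-0 root replicate 3 or opt3-2 root replicates 1 or 2 (otherwise adjusted p = 0.053 to 0.108). The block in the root libraries gave 2 positive and 3 negative salicylate calls, and leaving out opt3-2 root replicate 1 gave 2 negative ones.

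Of 24 genes against oxidative stress, 16 were called higher and 2 lower in opt3-2 leaves, and 14 higher in roots. Of all genes expressed in both organs, 18.8% were higher and 13.4% lower in leaves, and 9.07% higher in roots. For the organ difference 8 were called positive (33.3%, beside 10.6% of all genes) and 5 negative (20.8%, beside 8.35%). All 8 positive ones were called higher in leaves, 4 of them in roots as well. GSTU8, a glutathione transferase, had 22.1, 21.3 and 24.6 CPM in opt3-2 leaves, against 2.12, 2.49 and 4.2 CPM in Columbia-0 leaves. The roots held 31.3, 40.1 and 29.2 CPM in opt3-2 roots, against 23.9, 24.2 and 23.1 CPM in Columbia-0 roots. The leaf groups are far apart and the root groups close, with an organ difference of 2.42 ± 0.27 (adjusted p = 0.000131). GSTF7, whose reads GSTF6 can share, had 279, 244 and 364 CPM in opt3-2 leaves, against 72.8, 75 and 98.5 CPM in Columbia-0 leaves, overlapping root groups, and an organ difference of 2.05 ± 0.23 (adjusted p = 0.000158). APX1, the cytosolic ascorbate peroxidase, rose by 1.38 in leaves and 0.75 in roots (0.63), and NDB2, a mitochondrial NAD(P)H dehydrogenase, rose in leaves alone (1.02). Negative members were GPX1, a plastid glutathione peroxidase, which fell in leaves (-0.32) and rose in roots (0.50), GSTU19, which rose in roots alone (0.81), and GSTU24, GSTF8 and DHAR1. Without Columbia-0 leaf replicate 2 or opt3-2 leaf replicate 3 the positive calls numbered 4 and 5. Without Columbia-0 root replicate 1 the negative calls numbered 2, and they numbered 3 without Columbia-0 root replicate 3 or opt3-2 leaf replicate 1 or 2. Of 9 metal chelation genes, 1 was called positive (11.1%, beside 10.6% of all genes) and 2 negative (22.2%, beside 8.35%). The positive one was ABCC1, a vacuolar transporter of phytochelatins. It had 304, 305 and 300 CPM in opt3-2 leaves, against 216, 210 and 214 CPM in Columbia-0 leaves. Its root groups overlap, and the organ difference was 0.56 ± 0.12 (adjusted p = 0.00833). Transcripts of the glutathione synthesis genes GSH1 and GSH2 were lower in opt3-2 leaves (leaf effects -0.41 and -0.22). GSH1 had an organ difference of -0.41 ± 0.10 (adjusted p = 0.0196). GSH2 had one of -0.29 ± 0.07 (adjusted p = 0.0211) that was not called without Columbia-0 root replicate 1 (adjusted p = 0.0555). With the replicate number as a block within genotype, neither gene was called (adjusted p = 0.068 and 0.0747). Without opt3-2 root replicate 3, 2 chelation genes were positive.

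Several chaperones of the endoplasmic reticulum, which fold secreted proteins, rose in opt3-2 leaves. Of 17 heat shock and folding genes, 7 were called positive (41.2%, beside 10.6% of all genes) and 1 negative (5.88%, beside 8.35%). The positive ones include BIP1, BIP2, CNX1, CRT1 and PDIL1-1 of that compartment. BIP2 had 303, 337 and 458 CPM in opt3-2 leaves, against 167, 192 and 231 CPM in Columbia-0 leaves. Its root levels were 275, 283 and 244 CPM in opt3-2 roots, against 305, 358 and 339 CPM in Columbia-0 roots. Leaves separate upward and roots downward, the root change without a call, with an organ difference of 1.22 ± 0.22 (adjusted p = 0.00329). BIP1, whose sequence is close enough to BIP2 for reads to be split between them, had 0.98 ± 0.20 (adjusted p = 0.00802). PDIL1-1, a protein disulfide isomerase, rose by 1.06 in leaves with a root effect of 0.03, and the lectin chaperones CNX1 (0.76) and CRT1 (0.54) were called as well. HSC70-5, a mitochondrial chaperone, rose in leaves (0.29) and fell in roots (-0.30). HSP90.1, a cytosolic chaperone, rose in leaves (0.71), and HSFB2B, a heat shock factor, fell there (-1.11), with an organ difference of -1.24 ± 0.27 (adjusted p = 0.0101). BIP3 (0.13) and the transcription factor gene BZIP60 (-0.22) were not called. Without Columbia-0 leaf replicates 1 or 2, Columbia-0 root replicate 1 or opt3-2 leaf replicates 2 or 3, 4 genes of the list were positive.

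Of 22 genes for sugar starvation, dark response and senescence, 9 rose and 1 fell in opt3-2 leaves and 8 rose in roots. Of all genes expressed in both organs, 18.8% rose and 13.4% fell in leaves and 9.07% rose in roots. The organ difference was called negative for 7 (31.8%, beside 8.35% of all genes) and positive for 2 (9.09%, beside 10.6%). NAC029, a NAC factor of leaf senescence, had 154, 134 and 140 CPM in opt3-2 leaves, against 113, 110 and 124 CPM in Columbia-0 leaves. Values in roots were 24.5, 22 and 18.5 CPM in opt3-2 roots, against 6.94, 5.38 and 4.95 CPM in Columbia-0 roots. Groups separate in both organs but the leaf effect was not called, and the organ difference was -1.61 ± 0.18 (adjusted p = 0.000147). ORE1, another senescence NAC factor, had 10.4, 11.8 and 7.41 CPM in opt3-2 roots, against 3.47, 2.78 and 3.18 CPM in Columbia-0 roots, overlapping leaf groups, and an organ difference of -1.45 ± 0.23 (adjusted p = 0.00151). SEN1, a dark-induced gene, followed (-1.57 ± 0.28 (adjusted p = 0.00308)). DRM1, a dormancy-associated gene, fell in leaves (-0.34) and rose in roots (0.27). TPS11 (-0.63), AKINBETA1 (-0.40) and DIN10 (-0.88) were the other negative calls. The positive ones were NYE1, which starts chlorophyll breakdown (0.62 ± 0.11 (adjusted p = 0.00335)), and the autophagy gene ATG8I (0.34 ± 0.09 (adjusted p = 0.0231)); 1 of them was called without Columbia-0 leaf replicates 1 or 2, Columbia-0 root replicates 1 or 2, opt3-2 leaf replicates 2 or 3 or opt3-2 root replicate 2.

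The share of photosynthesis genes called for the organ difference was near that of all genes. Of 28 photosystem, antenna and Rubisco genes expressed in both organs, each with a negative value, 2 were called (7.14%, beside 8.35% of all genes), and none with the run-number set as a term. The block in the root libraries called 4 and DESeq2 7. The count was 7 without opt3-2 root replicate 3, 1 when Columbia-0 root replicate 3 was left out, and 0 without Columbia-0 leaf replicates 1 or 2, Columbia-0 root replicates 1 or 2 or any opt3-2 leaf library. PSAN, a photosystem I subunit, had 1825, 1878 and 1860.4 CPM in opt3-2 leaves, against 2248, 2201 and 1986 CPM in Columbia-0 leaves. In roots it had 17.5, 12.6 and 12.1 CPM in opt3-2 roots, against 10.3, 9.37 and 11.4 CPM in Columbia-0 roots. Mutant leaves are lower and mutant roots higher by small amounts, with an organ difference of -0.66 ± 0.18 (adjusted p = 0.033) that was not called without any of those 7 libraries (adjusted p = 0.0534 to 0.0823). FD2, the leaf ferredoxin, had an organ difference of -0.58 ± 0.17 (adjusted p = 0.042), a call kept only without Columbia-0 leaf replicate 3, opt3-2 root replicate 1 or opt3-2 root replicate 3 (otherwise adjusted p = 0.0532 to 0.0991). Of 20 chlorophyll and haem genes 1 was called negative (5%), CHLM, which methylates magnesium protoporphyrin (-0.41 ± 0.12 (adjusted p = 0.032)), and it was not called without Columbia-0 leaf replicate 2, Columbia-0 root replicates 1 or 2 or opt3-2 leaf replicate 3 (adjusted p = 0.0533 to 0.0792). The block in the root libraries called 4 of these genes. The count was 5 without opt3-2 root replicate 3, 2 without Columbia-0 leaf replicates 1 or 3 or opt3-2 leaf replicate 2, and 0 without the 4 libraries just named. The most abundant members, CHLH (0.01 ± 0.18 (adjusted p = 0.979)) and CHL27 (-0.55 ± 0.30 (adjusted p = 0.243)), were not called, except CHL27 without opt3-2 root replicate 3 (adjusted p = 0.0273, within a range of 0.0273 to 0.491).

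Of 11 phloem genes, 9 fell in opt3-2 leaves and 2 rose in roots, beside 13.4% and 9.07% of all genes. All 11 members expressed in both organs had a negative organ difference and 6 were called (54.5%, beside 8.35% of all genes), 4 through leaves alone and 2 in opposite directions. SUC2, the sucrose transporter that loads the phloem, had 201, 227 and 212 CPM in opt3-2 leaves, against 315, 353 and 344 CPM in Columbia-0 leaves. Root libraries held 65.9, 61.7 and 60.6 CPM in opt3-2 roots, against 43.5, 41.8 and 50.3 CPM in Columbia-0 roots. The genotypes are apart in both organs with opposite order, and the organ difference was -1.13 ± 0.12 (adjusted p = 8.01e-05). PP2-A1, a phloem lectin, had 158, 160 and 155 CPM in opt3-2 leaves, against 200, 228 and 228 CPM in Columbia-0 leaves. Its roots had 79.7, 68.3 and 56.9 CPM in opt3-2 roots, against 45.9, 44.7 and 44 CPM in Columbia-0 roots. It follows SUC2 in form (-1.08 ± 0.14 (adjusted p = 0.000535)). SEOA and SEOB, the filament proteins of sieve elements, fell in leaves alone, with organ differences of -0.72 ± 0.12 (adjusted p = 0.00212) and -0.75 ± 0.17 (adjusted p = 0.0107). So did NAKR1, a phloem metal-binding protein (organ difference -0.83 ± 0.17 (adjusted p = 0.00628)), and AHA3, the proton pump of companion cells (organ difference -0.50 ± 0.12 (adjusted p = 0.0151)). The whole marker list summed to 994 CPM (range 952 to 1046) in opt3-2 leaves and 1407 CPM (1308 to 1493) in Columbia-0 leaves, and to 548 CPM (530 to 578) in opt3-2 roots and 483 CPM (465 to 495) in Columbia-0 roots. In whole organs, fewer cells of a type and less RNA per cell cannot be told apart, and the part of this shift in the results for OPT3, which companion cells express, was not tested. Of the endodermis markers, 3 were expressed in both organs and none was called by edgeR or DESeq2, while limma voom called 1 and 2 passed at an unadjusted p under 0.05, 1 in each direction. The whole endodermis list summed to 62.5 CPM in opt3-2 leaves, 65.6 CPM in Columbia-0 leaves, 478 CPM in opt3-2 roots and 540 CPM in Columbia-0 roots, with CASP5 at 0 reads in the leaves of both genotypes. SCR, an endodermis regulator, had an organ difference of 0.36 ± 0.12 (adjusted p = 0.054), called with the block in the root libraries (adjusted p = 0.0168) and without opt3-2 root replicates 1 or 3 (0.0443 and 0.0154), within a range of 0.0154 to 0.183, and SHR had -0.21 ± 0.12 (adjusted p = 0.257).

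Of 17 cell wall genes, 7 fell in opt3-2 leaves, beside 13.4% of all genes. The organ difference was called negative for 3 (18%, beside 8.35% of all genes), 6 with the block in the root libraries, and 5 without opt3-2 root replicates 1 or 3. The 3 encode xyloglucan endotransglucosylases. XTH24 had 257, 216 and 207 CPM in opt3-2 leaves, against 362, 467 and 381 CPM in Columbia-0 leaves. It had 42.5, 40.9 and 35.7 CPM in opt3-2 roots, against 15.6, 10 and 13.1 CPM in Columbia-0 roots. The mutant is low in leaves and high in roots with no overlap (-2.45 ± 0.22 (adjusted p = 3.26e-05)). XTH31 had 6.3, 5.4 and 5.6 CPM in opt3-2 leaves, against 32.1, 22.2 and 15.5 CPM in Columbia-0 leaves, overlapping root groups, and an organ difference of -2.1 ± 0.29 (adjusted p = 0.000716), and XTH4 followed it (-1.17 ± 0.21 (adjusted p = 0.00359)). Among 11 cell cycle genes, TSO2, a small subunit of ribonucleotide reductase, was called positive (9.09%, beside 10.6% of all genes). It had 62.3, 68.7 and 61.7 CPM in opt3-2 leaves, against 35.6, 28.7 and 33 CPM in Columbia-0 leaves, overlapping root groups, and an organ difference of 1.04 ± 0.15 (adjusted p = 0.000856), while RNR1, which encodes the large subunit, had 0.20 ± 0.12 (adjusted p = 0.281). Of 15 clock genes RVE4 was called negative (-0.37 ± 0.08 (adjusted p = 0.0115)), a small fall in leaves. This was 6.67% of the list, beside 8.35% of all genes. RVE4 was not called with the replicate number as a block within genotype (adjusted p = 0.0589). With the block in the root libraries 2 clock genes were called negative. The count was also 2 without Columbia-0 root replicates 1 or 3 or opt3-2 root replicates 1 or 2. The block in the root libraries also gave 1 positive clock call, as did leaving out opt3-2 root replicate 3. LNK2 (-0.23 ± 0.13 (adjusted p = 0.246)) and the core clock factor CCA1 (-0.17 ± 0.15 (adjusted p = 0.475)) were not called.

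**Figure D5:**
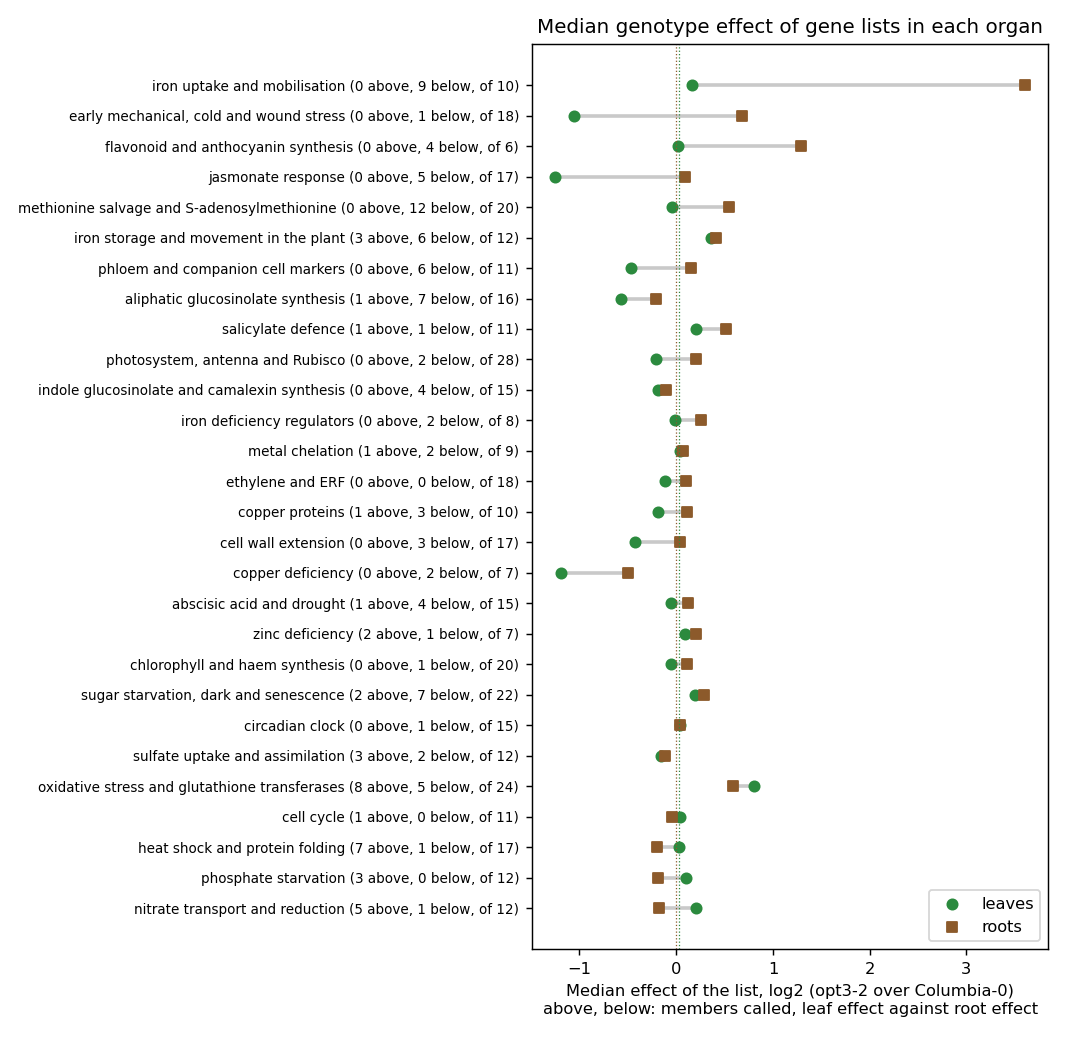
Median leaf effect (circles) and root effect (squares) of each gene list over its members expressed in both organs, in log2 of opt3-2 over Columbia-0, sorted by the median organ difference, with the numbers of called members beside the names and dotted lines at the medians of all 13389 genes. Iron uptake has the longest bar (0.16 in leaves, 3.60 in roots), and nitrate, phosphate and folding genes stand at the other end.

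Of the 10 lowest called organ differences 7, and of the 10 highest 8, belong to genes that reached 5 CPM in an organ through 1 genotype only, so that a difference there helped them to be kept. Among the lowest outside the lists, AT5G55620, CRK20 and AT3G07720 rose in opt3-2 roots, and the first 2 reached 5 CPM there only through the mutant, CRK20 in leaves as well. AT5G55620, which RefSeq calls an uncharacterized protein, had 59.2, 54.3 and 46.6 CPM in opt3-2 leaves, against 99.6, 81.9 and 71 CPM in Columbia-0 leaves. The roots held 34.9, 71.7 and 55.6 CPM in opt3-2 roots, against 0.376, 0.187 and 0.129 CPM in Columbia-0 roots. Every mutant root library is far above every Columbia-0 root library, while the leaf groups differ less, in the other direction and without a call, and the organ difference was -8.49 ± 0.45 (adjusted p = 1.04e-06). CRK20, a cysteine-rich receptor-like kinase, had 5.28, 4.96 and 5.35 CPM in opt3-2 leaves, against 0.957, 0.534 and 1.16 CPM in Columbia-0 leaves. Its root levels were 8.5, 11.6 and 14 CPM in opt3-2 roots, against 0.0289, 0.134 and 0.0965 CPM in Columbia-0 roots. It rose in both organs, more in roots, with an organ difference of -4.42 ± 0.52 (adjusted p = 0.000202). AT3G07720, a kelch repeat protein by its RefSeq name, had 1309, 2058 and 1895 CPM in opt3-2 roots, against 63.6, 68.2 and 53.3 CPM in Columbia-0 roots. It rose in both organs as well (0.75 ± 0.16 in leaves, 4.83 ± 0.19 in roots; -4.08 ± 0.24 (adjusted p = 2.12e-06)). PHI-1, a phosphate-responsive gene, had 2.98, 3.08 and 4.47 CPM in opt3-2 leaves, against 54.9, 29.2 and 19.4 CPM in Columbia-0 leaves. Its roots had 4.41, 10.5 and 41 CPM in opt3-2 roots, against 0.637, 2.19 and 11.5 CPM in Columbia-0 roots. As for DDF1 and CYP94B3, the root libraries numbered 3 are the high ones, and the organ difference was -5.28 ± 1.31 (adjusted p = 0.0183). FRO2, BGLU42, NAS1, CYP71B5, CYP94B3 and DDF1, described above, complete the 10 lowest.

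All 10 genes with the highest organ differences were called higher in opt3-2 leaves. For 8 of them this was partly set by their choice, because they reached 5 CPM in leaves only through opt3-2. The exceptions are AT1G52800 and CHX16. YLS9, a gene of the late embryogenesis abundant hydroxyproline-rich family, had 19.9, 14.7 and 21.1 CPM in opt3-2 leaves, against 1.41, 1.11 and 3.15 CPM in Columbia-0 leaves. In roots it had 3.87, 3.53 and 6.58 CPM in opt3-2 roots, against 6.22, 10.1 and 9.26 CPM in Columbia-0 roots. Leaves separate widely and roots overlap, with an organ difference of 4.13 ± 0.49 (adjusted p = 0.000215). YSL7, of the yellow stripe-like transporter family, had 9.98, 11.1 and 11.2 CPM in opt3-2 leaves, against 1.16, 1.34 and 1.39 CPM in Columbia-0 leaves. Its roots had 9.07, 10.2 and 10.3 CPM in opt3-2 roots, against 9.61, 11 and 10.5 CPM in Columbia-0 roots. Root levels were alike in both genotypes, and the organ difference was 3.11 ± 0.15 (adjusted p = 5.17e-07). PARP2, a poly(ADP-ribose) polymerase, had 23.8, 24.6 and 29.6 CPM in opt3-2 leaves, against 2.77, 2.67 and 4.99 CPM in Columbia-0 leaves, overlapping root groups, and an organ difference of 3.1 ± 0.29 (adjusted p = 4.21e-05). AT1G52800, a 2-oxoglutarate and iron dependent oxygenase by its RefSeq name, had 21.5, 21.4 and 20.9 CPM in opt3-2 leaves, against 5.39, 4.85 and 5.51 CPM in Columbia-0 leaves. Root libraries held 6.01, 5.17 and 4.26 CPM in opt3-2 roots, against 17.9, 11.6 and 12.3 CPM in Columbia-0 roots. It rose in leaves and fell in roots without overlap (3.45 ± 0.24 (adjusted p = 6.31e-06)). The remaining genes of the 10 highest that were not called in opposite directions were AT3G55700, a UDP-glycosyltransferase (3.65 ± 0.53 (adjusted p = 0.000876)), AT5G53110, a RING protein (3.21 ± 0.21 (adjusted p = 5.39e-06)), and AT3G01175, an uncharacterized protein (3.13 ± 0.39 (adjusted p = 0.000324)). PFA-DSP1, a protein phosphatase, rose in leaves (2.33) and fell in roots (-0.66), an organ difference of 2.99 ± 0.23 (adjusted p = 1.06e-05).

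Among the genes called in opposite directions, transporters and signalling genes are found in both orders. CHX16, a cation and proton exchanger, had 27.4, 25.4 and 28.2 CPM in opt3-2 leaves, against 4.48, 5.3 and 6.68 CPM in Columbia-0 leaves. It had 15.9, 15.7 and 15.3 CPM in opt3-2 roots, against 34.5, 27 and 28.1 CPM in Columbia-0 roots. The mutant is the higher genotype in leaves and the lower one in roots, with an organ difference of 3.22 ± 0.18 (adjusted p = 1.79e-06). DUR3, the high-affinity urea transporter, had 162, 160 and 164 CPM in opt3-2 leaves, against 56.6, 62.3 and 74.5 CPM in Columbia-0 leaves. Its roots had 91.1, 86.2 and 83.8 CPM in opt3-2 roots, against 219, 161 and 207 CPM in Columbia-0 roots. It repeats the order of CHX16 (2.5 ± 0.17 (adjusted p = 5.75e-06)). MEE62, a leucine-rich repeat kinase by its RefSeq name, had 133, 128 and 143 CPM in opt3-2 leaves, against 58.2, 51.2 and 59.6 CPM in Columbia-0 leaves, a root effect of -0.46 ± 0.08 and an organ difference of 1.72 ± 0.11 (adjusted p = 5.39e-06). AT5G59530, an oxygenase of the same kind as AT1G52800, had a leaf effect of 3.17 ± 0.15, a root effect of -0.44 ± 0.11 and an organ difference of 3.62 ± 0.18 (adjusted p = 8.95e-07). The reverse order, low in mutant leaves and high in mutant roots, was shown by GRF11 above and by AT3G54880, ROPGAP3 and scpl20. AT3G54880, a zinc finger protein by its RefSeq name, had 18.7, 16.4 and 16.6 CPM in opt3-2 leaves, against 26.4, 26.6 and 26.1 CPM in Columbia-0 leaves. The roots held 213, 199 and 206 CPM in opt3-2 roots, against 77.7, 81 and 78.2 CPM in Columbia-0 roots. The replicates of each group lie within a narrow range, and the organ difference was -2.0 ± 0.09 (adjusted p = 2.76e-07). ROPGAP3 had a leaf effect of -0.72 ± 0.08 and a root effect of 1.28 ± 0.09 (-2.01 ± 0.12 (adjusted p = 2.75e-06)), and scpl20, a serine carboxypeptidase-like gene, -0.61 ± 0.08 and 1.15 ± 0.08 (-1.76 ± 0.11 (adjusted p = 5.31e-06)). Without opt3-2 root replicate 3 the genes called in opposite directions numbered 442 in place of 247, and 151 to 162 without Columbia-0 root replicate 1 (151) or any opt3-2 leaf library (156 to 162).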

How the data were processed

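Transcripts were measured by RNA sequencing in leaves and roots of opt3-2 and Columbia-0, with 3 biological replicates per group and 3 sequencing runs per replicate. Illumina TruSeq libraries were made from RNA of 3 to 4 pooled plants, per the labels' protocols. The submitters' processing notes name TopHat2, edgeR and the TAIR10 build without versions. No source used here states the counting program or whether it used strand. The values the authors deposited are raw read counts for 28775 genes, not normalized, as the whole numbers show. Of its 72 columns, 36 were matched to a group and biological replicate by the letters and number of their names, and the other 36, whose names carry a T, were used in no step. Column names have S where sample titles have L, and S was read as leaf. Column names also carry run numbers: all opt3-2 libraries carry 1 to 3, and Columbia-0 libraries 2 to 4 or 5 to 7, so an effect of run and one of genotype cannot be told apart.

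Runs of a replicate differed by little more than sampling noise (chi-square per degree of freedom 1.02 to 1.07) and were summed to 12 libraries of 23981444 to 37685493 reads. Reads carry no molecular identifiers here, so precision from depth covers counting error only. Gene names and windows came from RefSeq's annotation of TAIR10.1, which matched 28009 gene identifiers and not the other 766. A single edgeR 4.0.16 quasi-likelihood model (R 4.3.3) with 4 group means, TMM factors and the filterByExpr filter tested 21692 genes with 8 residual degrees of freedom and a common biological coefficient of variation of 0.137. The contrast was the leaf effect minus the root effect, P-values were adjusted by Benjamini-Hochberg over all genes tested with a threshold of 0.05, and the SE is the absolute log2 value divided by the square root of F. The procedure was tested on simulated data.

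The gene set, the 31 lists and the comparisons were chosen with earlier results of these data known, so they give no independent support; 27 list symbols could not be matched to a gene. Genes named are OPT3, among genes expressed in both organs the 10 lowest and 10 highest called organ differences, up to 4 called members of each list by adjusted p (the 2 most abundant where fewer than 2 were called), and of the genes called in opposite directions the 8 with the lowest adjusted p. Other list members were named after their values were seen, and 1 gene that the rule names is not reported here. Alternatives were RLE, upper-quartile and organ-wise TMM factors, 2 other filters, DESeq2 1.42.0, limma voom (limma 3.58.1), a term for the run-number set, replicate blocks, other expression limits and leaving out each library. The labels give the groups shared replicate numbers. Deviations from the group means of same-numbered root libraries correlated at 0.466, 0.157 and 0.46, and those of leaf libraries at -0.072, -0.039 and 0.007. Root libraries numbered 1 and those numbered 3 thus deviated together. The numbers did not pair replicate 2, since opt3-2 root replicate 2 correlated at 0.182 with Columbia-0 root replicate 1. The block in the root libraries was chosen after seeing this. Deviations of same-numbered leaf and root libraries correlated at 0.084, 0.018 and 0.175 in opt3-2 and at -0.112, -0.045 and -0.125 in Columbia-0. Whether such libraries came from the same plants was not settled, and the main model had no term for it.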

Additional observations from a re-analysis of the deposited data

Results flagged for a closer look

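The organ difference is itself a test of whether opt3-2 changed a gene differently in leaves and in roots, so its counts stand here: 1415 genes had a leaf effect above the root effect and 1118 one below it, and 247 genes were called in both organs in opposite directions. The 8 of these with the lowest adjusted p are given with their tested organ difference in log2 units. Low in mutant leaves and high in mutant roots were GRF11 (-3.95), AT3G54880 (-2.0), ROPGAP3 (-2.01) and scpl20 (-1.76). High in mutant leaves and low in mutant roots were AT5G59530 (3.62), CHX16 (3.22), DUR3 (2.5) and MEE62 (1.72). In all 8, the 3 opt3-2 libraries lay on one side of the 3 Columbia-0 libraries in each organ. The 8 were chosen by their tests in these same libraries, so this separation adds no support. Groups of 3 are too small for a test of single outlying samples, and none was made.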

How the results depend on the processing

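With the run-number set as a term, root calls numbered 1078 and genes called in opposite directions 107. Over the fits without 1 library, positive organ differences numbered 769 to 1913, negative ones 871 to 1464, root calls 1336 to 2940, leaf calls 2877 to 5112 and opposite calls 151 to 442. The lowest positive counts came without Columbia-0 leaf replicate 2 or opt3-2 leaf replicate 3, the lowest root count without Columbia-0 root replicate 2, the lowest opposite count without Columbia-0 root replicate 1, and the highest opposite count without opt3-2 root replicate 3. Replicate numbers were also entered as a block: shared by all 4 groups it gave 1348 positive and 1103 negative calls, within genotype 1049 and 850, and in the root libraries alone 1618 and 1503 with 355 opposite calls. Among the named genes the block in the root libraries added the calls of TCH3, CZF1 and SCR and changed no other call. Signs turned for CHLH and EBF1, both near 0 and called in none of these fits. CHLH had an organ difference of -0.033 in DESeq2, -0.032 with RLE factors, -0.034 with no filter, -0.005 with upper-quartile factors, and -0.108 to 0.131 over the fits without 1 library. EBF1 had 0.088 in limma voom, 0.09 with the block in the root libraries, 0.089 with the block within genotype, 0.022 with the shared block, 0.092 with the run-number term, and -0.311 to 0.537 over the fits without 1 library, positive without Columbia-0 root replicates 1 or 2 or opt3-2 root replicate 3. The cause of these changes was not tested. Of the remaining values for named genes and lists, 3291 kept their direction and call (or, for counts, stayed within 1.5 times), 101 lost a call, 13 gained one and 139 counts moved further.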

Other observations

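Gene families by RefSeq product name, chosen after their values were seen and partly overlapping, add groups that the lists leave out; over all genes expressed in both organs 10.6% were called positive and 8.35% negative. Proteasome subunits were called positive for 8 of 33 genes expressed in both organs (24.2%) and negative for none, at a median organ difference of 0.22 (median leaf effect 0.28, median root effect 0.10), and PA200, a proteasome activator, had an organ difference of 0.73. Immune receptors of the TIR-NBS and NBS-LRR kinds had 15 positive (24.2%) and 1 negative (1.61%) calls among 62 genes, and receptor-like and leucine-rich repeat kinases 35 (15.6%) and 14 (6.22%) among 225. ABC transporters had 9 (33.3%) and 1 (3.7%) among 27, led by ABCC4 (1.68). NAC factors had 12 (32.4%) and 5 (13.5%) among 37, with NAC046 at 1.96, and WRKY factors 9 (29%) and 3 (9.68%) among 31, with WRKY47 at 2.15. Pentatricopeptide repeat proteins, which process organelle RNA, had 6 positive (6.82%, below the share of all genes) and no negative calls among 88, at a median leaf effect of -0.09 and a median root effect of -0.22.

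Negative calls outnumbered positive ones in 4 families. Cytochromes P450 had 9 positive (15.8%) and 15 negative (26.3%) calls among 57, among them CYP98A3, a phenylpropanoid enzyme, at -1.46. Aquaporins had 1 (5.56%) and 4 (22.2%) among 18, with PIP1C at -0.93 and PIP2A at -0.65, and UDP-glycosyltransferases 2 (6.06%) and 4 (12.1%) among 33. Ribosomal proteins had 1 and 7 calls among 293 (0.341% and 2.39%), both below the shares of all genes. In the others positive calls were the more numerous. Glutathione transferases had 6 (28.6%) and 4 (19%) among 21, heat shock proteins 14 (17.5%) and 2 (2.5%) among 80, RNA helicases 9 (16.4%) and 1 (1.82%) among 55, DNAJ chaperones 11 (12.6%) and 3 (3.45%) among 87 and RING proteins 32 (12.2%) and 12 (4.58%) among 262. Shares below those of all genes on both sides were found for tRNA synthetases, with 4 (8.33%) and 1 (2.08%) among 48, and zinc finger proteins, with 16 (7.02%) and 15 (6.58%) among 228. No list or family was tested as a set, and these counts describe the 12 libraries.

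Pollen markers, with 3 of 7 genes tested, summed to 8.12 CPM in opt3-2 leaves, 14.3 CPM in Columbia-0 leaves, 0.726 CPM in opt3-2 roots and 7.22 CPM in Columbia-0 roots, and no root hair or pollen marker was expressed in both organs.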
